A study of Drosophila melanogaster with 3 samples.

Results

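In the compact Drosophila genome many protein-coding genes lie head to head, with their 5′ starts close together and transcription running away from a shared promoter. The peaks described here are those of the transcription factor Erect wing (Ewg) at such divergent promoters. The study mapped Ewg by chromatin immunoprecipitation and sequencing (ChIP-seq) in whole embryos of mixed sex aged 0 to 14 h. The flies carried a transgene that encodes Ewg with GFP at its C-terminus, and DNA was recovered with an antibody against GFP. There were 3 biological replicates of this 1 group, with no other genotype or treatment. All embryonic cell types were pooled, so a peak in few cells and a weak peak in many cells cannot be told apart.

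A member is a peak of the authors' optimal set, the list thresholded by irreproducible discovery rate (IDR), whose summit lay within 500 bp of the outermost 5′ start of a divergent gene. A gene counted as divergent when a protein-coding neighbour on the other strand started within 1000 bp and the 2 genes pointed away from each other. Of 13945 protein-coding genes, 4650 (33.4%) had such a partner, in 2436 pairs. The optimal set held 6793 peaks, and 1096 of them (16.1%, 95% interval 15.3 to 17.03%) were members. The summits of 1510 other peaks (22.2%) lay within 500 bp of the outermost start of a non-divergent gene, and 4187 lay elsewhere. Few peaks lay near the limit of the rule. The 11 members 451 to 500 bp from a start had a median signal of 391.4, and the 10 peaks at 501 to 550 bp had 370.1.

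Ewg is a sequence-specific activator needed for flight muscle and for neurons, and its vertebrate homologue is NRF-1, which binds a GC-rich palindrome in promoters of genes for mitochondrial function and growth. Divergent promoters place a pair of core promoters back to back, so that a factor bound between them is near both genes. In flies they are often promoters of broadly expressed genes, and DREF, BEAF-32 and M1BP are proteins known to bind promoters of that kind.

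Sequence is shown first for the gaps between the starts of 3 of the 10 strongest members, and for a weak one, to show what lies under a summit in the shared promoter. Gaps over 300 bp, and gaps that did not hold the summit, were not printed. Each run is on the plus strand of dm6 from the RefSeq reference genome, from the base after the start of the minus-strand gene to the base before the start of the plus-strand gene. Capitals mark matches to the motifs searched, either strand, single copies of the BEAF-32 core included.
CG14312/CG8064: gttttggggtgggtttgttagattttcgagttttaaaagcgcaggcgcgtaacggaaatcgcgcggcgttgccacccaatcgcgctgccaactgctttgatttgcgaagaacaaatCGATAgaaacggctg
Art3/mRpS10: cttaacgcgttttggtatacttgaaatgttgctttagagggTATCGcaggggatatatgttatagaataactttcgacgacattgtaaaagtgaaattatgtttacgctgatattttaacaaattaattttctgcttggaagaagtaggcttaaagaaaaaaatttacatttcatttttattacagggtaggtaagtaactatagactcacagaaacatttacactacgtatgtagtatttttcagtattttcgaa
Tcs5/CHMP2B: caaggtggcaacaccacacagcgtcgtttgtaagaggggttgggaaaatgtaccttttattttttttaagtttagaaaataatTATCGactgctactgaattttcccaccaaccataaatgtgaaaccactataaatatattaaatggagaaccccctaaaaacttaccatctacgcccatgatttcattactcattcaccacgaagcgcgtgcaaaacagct
Datp/CG4619: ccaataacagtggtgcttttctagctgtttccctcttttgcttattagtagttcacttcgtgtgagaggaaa
These are chr3R:18283529-18283659, chr3R:15229409-15229664, chr3L:5139396-5139618 and chr2L:9938791-9938862. The first 3 gaps held a single BEAF-32 core each and neither NRF-1 motif, and the gap of Datp/CG4619, rank 6782 of 6793, held no motif searched. A single core is below the 2 copies required in the motif counts below. The printed gaps do not stand for all 10 strongest members. Among the others, Sfp26Ad/Gpdh1, CG7156/14-3-3epsilon and CG11882/Pglym78 had the NRF-1 hexamer TGCGCA within 100 bp of the summit.

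The gaps of Fibp/Deaf1 (chr3L:19817968-19818173) and MtnA/CG8500 (chr3R:9784371-9784652) are shown because, among the gaps of up to 300 bp that were considered for printing, they held the strongest members with a DRE and with the NRF-1 hexamer between the starts; they were picked after the motif shares had been seen. Deaf1 encodes a DNA-binding transcription factor and MtnA a metallothionein.
Fibp/Deaf1: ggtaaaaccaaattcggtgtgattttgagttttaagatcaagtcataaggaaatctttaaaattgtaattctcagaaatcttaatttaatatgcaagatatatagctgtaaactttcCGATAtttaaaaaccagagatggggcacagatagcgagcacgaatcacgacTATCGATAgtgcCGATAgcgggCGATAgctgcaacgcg
MtnA/CG8500: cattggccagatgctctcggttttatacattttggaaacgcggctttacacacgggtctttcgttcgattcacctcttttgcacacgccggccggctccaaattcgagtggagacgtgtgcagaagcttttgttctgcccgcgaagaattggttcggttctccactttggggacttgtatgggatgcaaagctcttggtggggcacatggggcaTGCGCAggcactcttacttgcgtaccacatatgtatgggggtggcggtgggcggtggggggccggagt
The complete NRF-1 palindrome was found at 8 members. It is shown in capitals with its flanks for 5 of them, at chr3R:18242612-18242641, chrX:8061031-8061060, chr3L:5920963-5920992, chr2L:19034893-19034922 and chrX:10086670-10086699, because the palindrome is the textbook NRF-1 site.
CG7156/14-3-3epsilon: accatcgcttGCGCATGCGCacggaacgcg
fs(1)h/mys: cgggcacgagGCGCACGCGCttggtacatg
PXo/CG32407: gctcaacaggGCGCATGCGCgttgaaagct
hook/mib2: ccattaaaaaGCGCACGCGCgtataaaatg
Naxe/RhoU: tgtgagttgcGCGCACGCGCaaccaacaaa

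Divergent starts were bound more often than other starts. A start is called bound here when an optimal summit lay within 500 bp. Of the 4650 divergent genes, 1844 were bound (39.7%), against a background of 23.7% of all 13945 genes and 15.7% (1463 of 9295) of non-divergent genes. In the strongest 6793 regions of each replicate, 38.8%, 39.5% and 36.8% of divergent starts were bound in replicates 1, 2 and 3. The shares of other starts were 15.6%, 17.2% and 14.5%. The groups of replicate values did not overlap, and the difference was 22.6 ± 0.528 percentage points (SD, n = 3; two-sided exact sign-flip permutation test, p = 0.25, the smallest that 3 replicates allow). A single peak can count for both genes of a pair. Counted once per pair, 1057 of 2436 pairs (43.4%) had an optimal summit near either start.

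The density of peaks differed in the same direction. Members numbered 358.6 per Mb of divergent promoter window, against 167.9 per Mb at non-divergent promoters and 34.4 per Mb in the rest of the genome. The replicates gave 353.7, 360.9 and 331.1 per Mb at divergent promoters and 166.3, 185.0 and 155.6 at the others. All 3 replicate values at divergent promoters thus lay above all 3 at the others.

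Unbound pairs often had a region of a more permissive list nearby. Of the 1379 pairs with no optimal summit, 547 (39.7%) had a region of the pooled permissive list, which holds 30000 regions and includes background, within 500 bp of a start. Bound or not, 1604 of all 2436 pairs (65.85%) had such a region, against 3312 of all 9295 non-divergent starts (35.6%). Such a region can be background, and the share that random placement would give was not tested. Of pairs with any such region, 65.9% were bound, compared with 44.2% of non-divergent starts with such a region. A pair offers 2 starts and therefore a wider window than a single start.

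Most summits lay in the shared promoter. Of 1096 members, 797 (72.7%, 95% interval 70.0 to 75.3%) had the summit between the 2 starts, a space that makes up 26.3% of the window bases of the pairs with members. The share was 73.2%, 66.5% and 72.6% in replicates 1 to 3, so replicate 2 was the lowest. At non-divergent promoters, 1160 of 1510 summits (76.8%, 95% interval 74.6 to 78.9%) lay upstream of the start. A summit upstream of its start was thus not particular to divergent promoters. Both starts were within 500 bp of the summit in 878 members (80.1%). The nearest start was that of the minus-strand gene in 522 (47.6%), so neither strand predominated.

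Summits at divergent promoters were also closer to a start. The median distance was 85 bp, against 130 bp at non-divergent promoters. The 100 bp just upstream of the nearest start held 494 members (45.1%), compared with 29.5% of non-divergent promoter peaks. A summit between 2 starts can lie upstream of its nearest start by no more than the distance to the midpoint of the gap, which bounds the distance on that side.

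**Figure D1:**
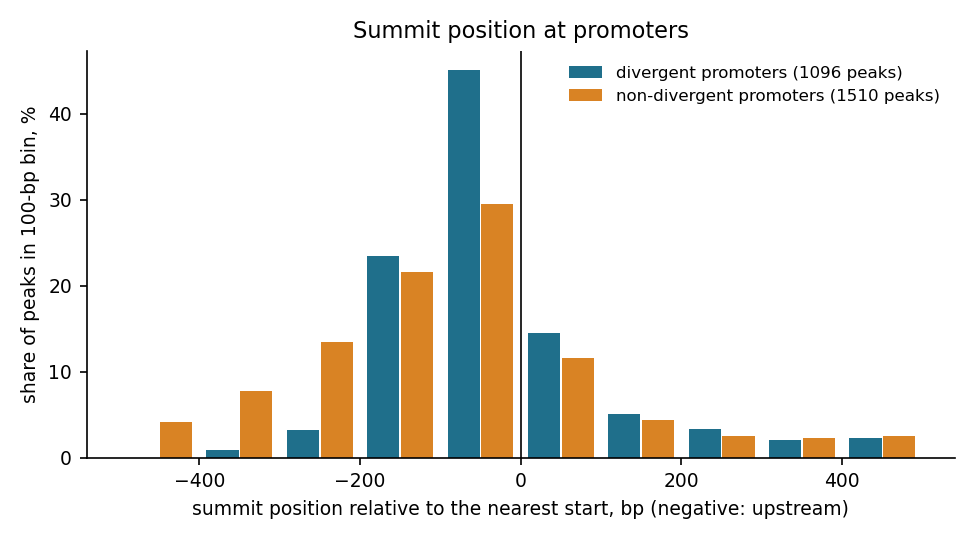
Share of peaks (y axis, %) in 100-bp bins of summit position relative to the nearest outermost start (x axis, bp, negative upstream) for 1096 peaks at divergent and 1510 at non-divergent promoters. The bin just upstream of the start holds 45.1% of the former and 29.5% of the latter.

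The distance between the 2 starts had a median of 304 bp over all pairs and ranged from 0 to 995 bp. Pairs 201 to 300 bp apart were bound in 50% (248 of 496) and pairs 301 to 500 bp apart in 48.6% (304 of 625). The share was 41.7% up to 100 bp, 34.9% at 101 to 200 bp and 38.3% at 501 to 1000 bp. In the replicates, pairs 201 to 300 bp apart were bound in 47.6%, 50.2% and 47.0%, and those 101 to 200 bp apart in 33.3%, 37.3% and 32.4%. Every replicate thus showed the higher share at 201 to 300 bp, by 13.9 ± 0.888 percentage points (SD, n = 3; exact sign-flip permutation p = 0.25, the smallest possible). Wider pairs have a wider window, and per Mb of window the members numbered 396.3, 293.0, 408.0, 370.4 and 242.6 from the narrowest to the widest class. The 4 differences between classes that were tested all had the same p, which adjustment leaves at 0.25.

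**Figure D2:**
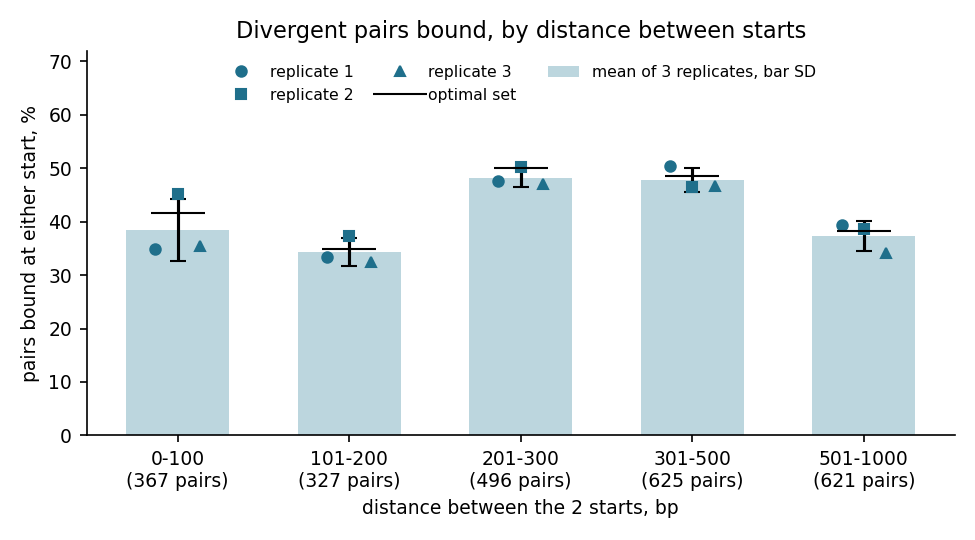
Share of divergent pairs bound at either start (y axis, %) by distance between the 2 starts (x axis, bp), with bars for the mean and SD of 3 replicates, points for each replicate and a dash for the optimal set. The 3 replicates sit between 47.0% and 50.2% at 201 to 300 bp and between 32.4% and 37.3% at 101 to 200 bp.

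The place of the summit changed with the gap. Summits lay between the starts in 35.7% of members (55 of 154) in the narrowest class, where only 5.56% of window bases are between the starts, in 83.1% at 201 to 300 bp and in 84.7% at 301 to 500 bp. In the widest class, 187 of 257 summits (72.8%) lay between the starts. Of these 187, 148 (79.1%) were in the first or last of 3 equal parts of the gap and 39 in the middle part, where even placement would put 2 of every 3 summits in the outer parts. Of the widest pairs, 15.8% had a summit within 500 bp of each start, not necessarily the same summit, against 48.0% of those 201 to 300 bp apart. The 500-bp window itself limits this contrast, so no conclusion on placement is drawn from it. In the widest pairs a summit at either start lies over 500 bp from the other start. At 201 to 300 bp, any summit between the starts is within 500 bp of both.

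Median relative signal, the signal of a peak divided by the median optimal peak of the same replicate, was 1.32 ± 0.133 (SD, n = 3) for pairs 201 to 300 bp apart and 1.05 ± 0.0211 for those up to 100 bp apart. The values in replicates 1 to 3 were 1.41, 1.17 and 1.39 at 201 to 300 bp and 1.06, 1.05 and 1.02 in the narrowest class. These values did not overlap between the 2 classes. Pairs 101 to 200 bp apart had 1.34, 1.22 and 1.14, which overlapped those at 201 to 300 bp.

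Most pairs with a member had a single one (835 pairs), while 123 had 2 and 5 had 3. The 5 were CG4297/MED15, RpL7A/dx, Alh/CG10098, stwl/CG3919 and Apc/spg, with 363 to 813 bp between the starts. MED15 is a subunit of Mediator, the coactivator that links activators to RNA polymerase II, and its pair held the strongest of these peaks. The summit of that peak lay between the starts, 244 bp from the start of CG4297 and 569 bp from that of MED15. It had a relative signal of 2.55, 1.97 and 2.20 in replicates 1 to 3. A weaker summit of the pair lay 35 bp from the MED15 start. In the pair of RpL7A, a ribosomal protein gene, with dx, a regulator of Notch signalling, the strongest of the 3 summits lay 56 bp from the start of RpL7A and had 1.22, 0.794 and 1.21. The 15 peaks of these 5 pairs ranked from 1025 to 6372 of 6793.

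The share of pairs bound was 41.1% on X, 42.4% on 2L, 40.8% on 2R, 47.2% on 3L and 45.1% on 3R, and the 95% counting intervals of X, 2L and 2R overlapped those of 3L and 3R. None of the 8 pairs of chromosome 4 was bound, which with so few pairs allows a share of up to 36.9% (exact interval). On X, 147 of 1220 optimal peaks (12.0%) were members, while the other large arms had 16.4 to 18.0%.

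The strength of members relative to other promoter peaks had no direction common to the 3 replicates. Median relative signal of members was 1.22, 1.04 and 1.13 in replicates 1 to 3. For non-divergent promoter peaks it was 1.12, 1.26 and 1.12, and for all remaining peaks 0.923, 0.913 and 0.949. Members were thus above non-divergent promoter peaks in replicate 1, below them in replicate 2 and level in replicate 3. The log2 difference of medians was 0.11, -0.29 and 0.01, with a mean of -0.05 ± 0.21 (SD, n = 3; exact sign-flip permutation p = 1), and without replicate 2 the mean was 0.05. In the pooled list, member signal ranged from 141.8 to 4899 with a median of 285.8, against 309.2 for non-divergent promoter peaks.

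Replicate 2 stood apart from the others, at members as in the optimal set as a whole. Over the 871 members measured in all 3 replicates, Pearson's r of log2 signal across peaks, which are not independent, was 0.868 between replicates 1 and 3, while replicate 2 gave 0.775 with replicate 1 and 0.788 with replicate 3. Over all 5852 optimal peaks measured the values were 0.865, 0.749 and 0.742, and at non-divergent promoter peaks 0.887, 0.783 and 0.773. Replicate 2 gave the lowest of the 3 relative signals in 436 members (50.1%) and the highest in 255 (29.3%), whereas at non-divergent promoter peaks it was lowest in 31.6% and highest in 51.6%. Its place moved with base composition. Among 350 members with less than 35% G+C within 100 bp of the summit it was lowest in 69.4% and highest in 12.9%, and among 187 members with 45% or more it was lowest in 16.6% and highest in 65.2%. Members had a median G+C of 36.8%, against 42.8% for non-divergent promoter peaks. Compared only within windows of 25 to 35%, 35 to 45% and 45 to 55% G+C, the difference between the classes in replicate 2 was -0.06, -0.08 and -0.08 on the log2 scale. The part of base composition in the difference between replicates was not tested.

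A smaller share of members than of non-divergent promoter peaks had a region among the strongest of all 3 replicates. The optimal set was itself thresholded on these replicates, so this share is no independent measure of agreement. For 655 members (59.8%), each replicate had a summit within 100 bp when its list was limited to its top 6793 regions, against a background of 62.1% of all optimal peaks. The share was 66.2% of non-divergent promoter peaks, and its counting interval (63.7 to 68.5%) did not overlap that of members (56.8 to 62.7%). A further 285 members were present in 2 replicates, 135 in 1 and 21 in none. Without the limit on rank, 871 members (79.5%, 95% interval 77.0 to 81.8%) had a region within 100 bp in every replicate, against 86.1% of all optimal peaks and 85.9% (84.0 to 87.6%) of non-divergent promoter peaks. The summits of the 3 replicates spanned a median of 40 bp at members and 34 bp at non-divergent promoters. Presence depends on the rank limit and on this distance, and at 50 bp the share of members fell to 44.8%.

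The range of strength among members was wide. Mean relative signal over the 3 replicates ran from 0.360 to 16.8 with a median of 1.09. It was at least 2 in 202 of 871 members (23.2%) and at least 4 in 62 (7.12%). The median coefficient of variation over replicates was 23.7%.

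The strongest member lay between Sfp26Ad, a seminal fluid protein gene, and Gpdh1, which encodes the glycerol-3-phosphate dehydrogenase of the glycerophosphate shuttle. Its relative signal was 17.4, 18.4 and 14.7 in replicates 1 to 3, or 16.8 ± 1.89 (SD, n = 3). The summit, at position 5943642 of 2L, was 1 bp upstream of the Gpdh1 start and 338 bp from that of Sfp26Ad. It ranked 2 of all 6793 peaks, and the NRF-1 hexamer lay within 100 bp of it.

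The next was at CG7156/14-3-3epsilon, the latter an adaptor that binds phosphorylated proteins, with 14.97, 10.7 and 14.4 (13.3 ± 2.31). Its summit, at 18242588 of 3R, lay inside 14-3-3epsilon, 57 bp from the start, and it carried the complete NRF-1 palindrome printed above 38 bp from the summit. These 2 members stood above the rest in every replicate except replicate 2, where CG14312/CG8064 and mor/Hel89B exceeded 14-3-3epsilon. CG14312/CG8064 had 9.80, 11.9 and 7.66, and its summit lay between starts that were 132 bp apart.

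Ugalt/eIF2Bbeta had 11.7, 9.25 and 12.7 (11.2 ± 1.78). The summit, at 2703891 of X, was 39 bp from the start of Ugalt, a UDP-galactose transporter gene, and 680 bp from that of eIF2Bbeta, a subunit of the exchange factor that recharges initiation factor eIF2, so only Ugalt counted as bound. At mor/Hel89B the values were 8.77, 10.8 and 8.05, and the summit, at 15973694 of 3R, lay 396 bp inside Hel89B, a gene for a SNF2-family ATPase. The mor gene encodes a subunit of the Brahma chromatin remodelling complex. At CG11882/Pglym78 they were 8.63, 10.7 and 8.31, with the summit 31 bp inside Pglym78, a phosphoglycerate mutase of glycolysis.

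Chro encodes Chromator, a chromodomain protein of interbands and the spindle, and Ssl1 a subunit of the general factor TFIIH; their member had 9.50, 7.08 and 10.4. Both mitochondrial ribosomal protein genes among the 10, mRpL41 and mRpS10, had similar values. The member of mRpL41/CG8079 had 9.69, 6.56 and 9.07, and that of Art3/mRpS10 had 9.25, 5.89 and 9.72. Tcs5/CHMP2B, the latter a subunit of the membrane-remodelling ESCRT-III complex, had 8.65, 5.74 and 10.01. Replicate 2 was the lowest of the 3 in 6 of these 10 members and the highest in the other 4. The last 8 of the 10 overlapped in their replicate values.

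**Figure D3:**
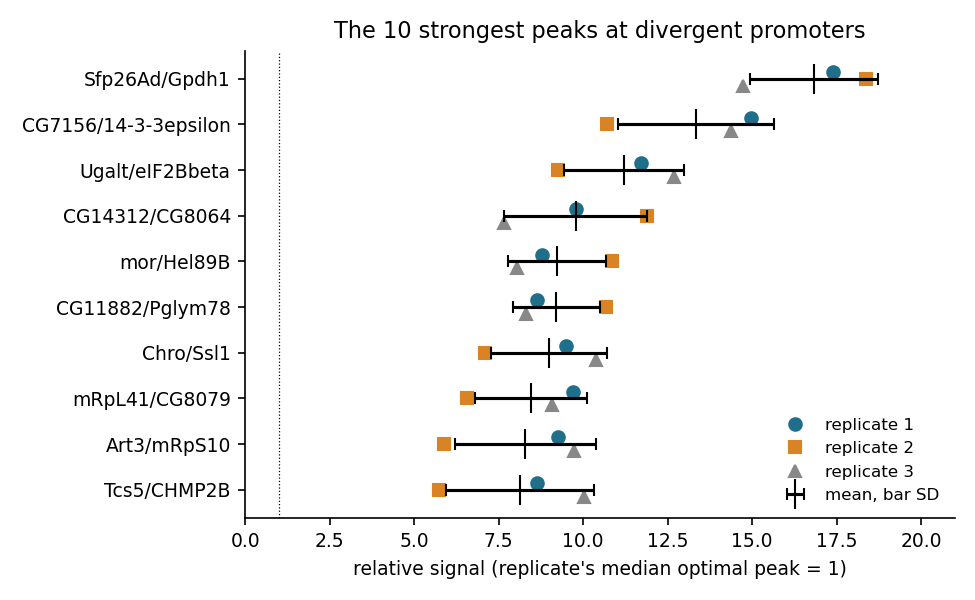
Relative signal (x axis, the replicate's median optimal peak set to 1, dotted line) of the 10 strongest peaks at divergent promoters, with 1 point per replicate and a bar for mean and SD. Replicate 2 is the lowest point in 6 pairs and the highest in 4.

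The weakest 5 members by pooled signal were those at ssh/Nmnat, Datp/CG4619, CG6674/CG42455, CG5946/RpL10Ab and Septin4/CG4678, with pooled signals of 141.8 to 142.3. Nmnat, an enzyme of NAD synthesis, shared its 281-bp promoter with ssh; the member there had 0.831 in replicate 1, 0.751 in replicate 2 and no region within 100 bp in replicate 3. At Datp/CG4619 the values were 0.428, 0.548 and 0.486, all below the median peak. The member at CG5946/RpL10Ab, 253 bp inside CG5946 and 829 bp from the RpL10Ab start, was measured in replicate 2 alone.

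Motifs were sought on both strands in the 201 bp centred on each summit. Each share is set beside that of windows of the same length centred on all 13945 outermost starts, which are placed differently from summits. The NRF-1 palindrome, the core of the vertebrate site, was at 8 members (0.730%), against 24 of 1510 non-divergent promoter peaks (1.59%), 100 of 4187 remaining peaks (2.39%) and 0.179% of starts. The hexamer TGCGCA, 1 arm of the full vertebrate site, which can overlap the palindrome, was at 129 members (11.8%, 95% interval 9.92 to 13.8%), 19.7% of non-divergent promoter peaks, 17.7% of the remaining peaks and 5.19% of starts. In the replicates the hexamer was in 10.5%, 12.2% and 10.6% of regions at divergent promoters and in 17.7%, 19.7% and 19.1% at the others. Every replicate was thus lower at divergent promoters, with a difference of -7.72 ± 0.698 percentage points (SD, n = 3). Its median distance to the summit was 33.5 bp.

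The GAGA site GAGAGAG, a repeat bound by GAGA factor, was also less frequent at members. It was at 30 members (2.74%), 11.4% of non-divergent promoter peaks and 3.69% of starts. The replicates gave 2.78%, 2.99% and 2.57% at divergent and 9.50%, 11.5% and 10.4% at non-divergent promoters, again without overlap.

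DRE, M1BP and BEAF-32 motifs were more frequent. The DRE TATCGATA, the element bound by DREF, was at 127 members (11.6%), 5.76% of non-divergent promoter peaks, 0.502% of the remaining peaks and 7.84% of starts. In the replicates it was at 10.3%, 11.7% and 10.1% of divergent and 6.22%, 6.43% and 5.36% of non-divergent promoter regions. At least 2 copies of the BEAF-32 core CGATA, leaving out copies within a DRE, were at 188 members (17.2%), 10.6% of non-divergent promoter peaks and 13.5% of starts. The M1BP site GGTCACAC was at 91 members (8.30%), 5.76% of non-divergent promoter peaks and 6.76% of starts. The replicate differences were 4.68 ± 0.608 points for the DRE, 6.07 ± 0.315 for BEAF-32 and 2.60 ± 0.428 for M1BP (SD, n = 3). The E-box CAGCTG was at 15.2% of members and 15.5% of non-divergent promoter peaks, and its replicate values overlapped. For each of the 7 motifs the two-sided exact sign-flip permutation test gave p = 0.25, the smallest possible, and the Benjamini-Hochberg adjusted p over the 7 was also 0.25.

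**Figure D4:**
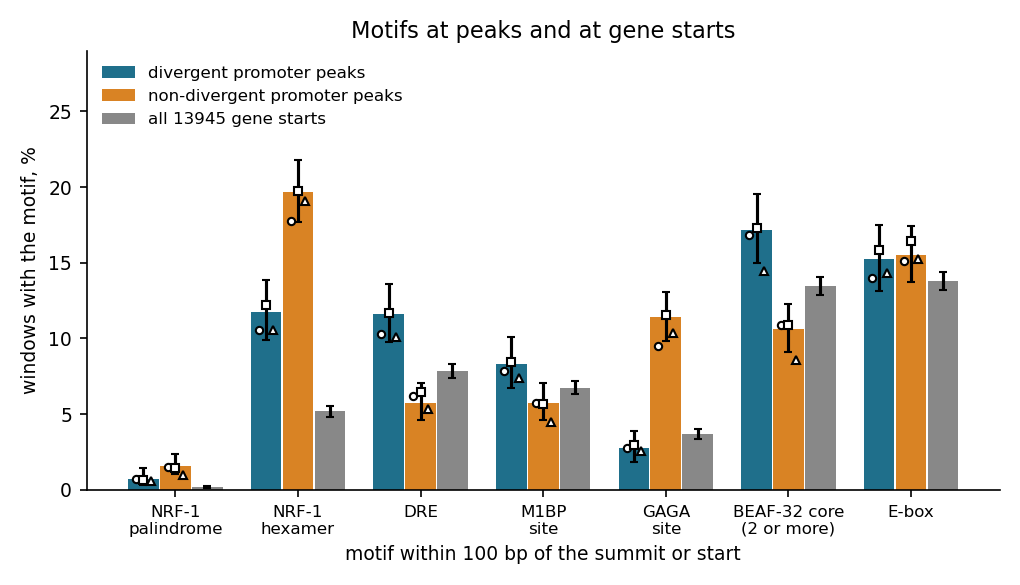
Share of windows with each motif (y axis, %) within 100 bp of the summit or start, for peaks at divergent promoters, peaks at non-divergent promoters and all 13945 gene starts; error bars are exact 95% counting intervals and open points are the 3 replicates. The NRF-1 hexamer and the GAGA site are lower and the DRE and BEAF-32 core higher at divergent than at non-divergent promoters.

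The classes differ in base composition, and the shares were therefore also compared within ranges of G+C. At 25 to 35% G+C the NRF-1 hexamer was at 6.05% of 413 members and 6.16% of 357 non-divergent promoter peaks, at 35 to 45% at 12.7% of 418 and 16.3% of 465, and at 45 to 55% at 21.9% of 196 and 27.0% of 459. The gap between the classes was thus -0.109, -3.67 and -5.08 percentage points, and the counting intervals overlapped in all 3 ranges. The DRE remained more frequent at members in each range, at 10.4% against 3.92%, 14.8% against 9.89% and 10.2% against 5.88%. The GAGA site remained less frequent, at 0.969% against 3.92%, 2.39% against 6.88% and 7.65% against 15.9%. For BEAF-32 the members were higher by 5.65, 3.75 and 8.12 percentage points. The counting intervals of the classes overlapped for the DRE in the upper 2 ranges, for the GAGA site in the lowest and for BEAF-32 in the lower 2. The M1BP site was not compared within these ranges.

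Bound and unbound pairs were compared at the midpoint of the gap, a place the peaks did not choose. The NRF-1 hexamer was within 100 bp of the midpoint in 64 of 1057 bound pairs (6.06%, 95% interval 4.69 to 7.67%) and in 41 of 1379 unbound pairs (2.97%, 2.14 to 4.01%). The shares of the DRE were 8.99% and 8.41%, of BEAF-32 13.4% and 15.1%, of M1BP 5.30% and 5.44%, and of the GAGA site 1.99% and 2.47%. Of these motifs, the hexamer alone had intervals that did not overlap between bound and unbound pairs; the palindrome was at no midpoint of either kind.

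Members with the NRF-1 hexamer were stronger. Their median relative signal was 1.74, 1.66 and 1.52 in replicates 1 to 3 (107 members), against 1.17, 0.986 and 1.07 for the 764 without it. The groups of replicate values did not overlap, and the log2 difference was 0.61 ± 0.13 (SD, n = 3; exact sign-flip permutation p = 0.25, the smallest possible). At non-divergent promoter peaks the same difference was 0.25, 0.77 and 0.24; whether it differs from that at members was not tested. Members with BEAF-32 motifs were weaker, with 1.03, 0.888 and 0.857 against 1.27, 1.08 and 1.20, a difference of -0.35 ± 0.11. For M1BP the difference was -0.31 ± 0.16 and for the DRE -0.10 ± 0.02, negative in every replicate. Members with the hexamer were highest in replicate 2 more often than members as a whole, in 55 of 107 (51.4%).

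Members with the palindrome ranged from weak to strong. Beside 14-3-3epsilon, it was near the summit at fs(1)h/mys, a BET bromodomain gene and the gene for a beta integrin, with relative signals of 5.63, 7.30 and 4.50. At PXo/CG32407 the values were 1.38, 3.32 and 1.22, at hook/mib2 1.40, 0.997 and 0.804, and at Naxe/RhoU 0.884, 1.42 and 0.592. CG30423/CG44247 had 2.75, 4.25 and 2.80. At mu2/Cnb and qless/mRpL32, the remaining 2, the signal was below the median peak in every replicate in which it was measured. Replicate 2 was the highest at fs(1)h/mys, PXo/CG32407, Naxe/RhoU, CG30423/CG44247 and qless/mRpL32. In 7 of the 8 members with the palindrome the summit lay inside a gene, and in 1 it lay between the starts.

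Members with the summit between the starts differed in sequence from the 299 with the summit inside a gene. Median G+C was 35.3% between the starts and 42.3% inside. The DRE was at 13.05% and 7.69%, BEAF-32 at 19.6% and 10.7%, and the NRF-1 hexamer at 10.5% and 15.1%. Median relative signal was 1.27, 1.01 and 1.14 between the starts and 1.14, 1.11 and 1.10 inside, and these values overlapped.

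Genes of translation, energy metabolism and transcription were read from 16 lists set by gene symbol, each against the 39.7% of all divergent genes that were bound. Cytosolic ribosomal protein genes stood highest. Of 92, 54 were divergent and 42 of these were bound (77.8%), with 41, 44 and 43 in replicates 1 to 3, while 23 of the 38 non-divergent ones were bound. The member at RpL24-like/CG5276, among the strongest at genes of this list, had relative signals of 5.11, 5.36 and 4.48. RpL24-like entered the list by its symbol alone. The summit lay 23 bp inside CG5276 and 179 bp from the RpL24-like start.

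Mitochondrial ribosomal protein genes were mostly divergent, 56 of 73 (76.7%). Of the divergent ones 31 were bound (55.4%), with 28, 30 and 27 in the replicates, and of the 17 others only mRpL53 and mRpS14 were. The summit was nearer the partner than the mitochondrial ribosomal protein gene at 26 of the 34 members of these pairs, as seen for mRpS10 above, where it lay 109 bp from Art3 and 148 bp from mRpS10. At the 54 members of cytosolic ribosomal protein pairs it was nearer the ribosomal protein gene in 37.

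Genes of the respiratory chain and ATP synthase were bound in 17 of 37 divergent cases (45.9%), against 11 of 50 others. The replicates had 12, 10 and 14 of 37, so the replicate shares lay below that of the optimal set. Of all divergent starts, 38.8%, 39.5% and 36.8% were bound in the same replicates. The list was thus above that background in replicate 3 alone. ND-B15 and ND-51, both for subunits of complex I, had the strongest members that counted for genes of this list. The member of CG10151/ND-B15 had 2.32, 5.87 and 2.64, far higher in replicate 2. Its summit lay inside CG10151, 208 bp from the start of that gene and 436 bp from the ND-B15 start. A stronger summit of the same pair lay over 500 bp from the ND-B15 start and did not count for ND-B15. The member of ND-51/CG13994 had 2.37, 2.37 and 2.19. Both mitochondrial import genes that were bound of 4, Tom7 and Tim10, lay near or below the median peak, with 1.08, 1.22 and 1.07 at Tom7 and 0.898, 0.582 and 0.914 at Tim10.

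In the translation lists, 10 of 22 divergent aminoacyl-tRNA synthetase genes (45.5%) and 9 of 20 initiation factor genes (45%) were bound. The member of ArgRS-m, the mitochondrial arginyl-tRNA synthetase, had 6.36, 7.56 and 5.30, and that of IleRS had 2.65, 1.53 and 2.13. The member of eIF4EHP, a cap-binding repressor of translation, had 4.88, 3.06 and 5.16. That of eIF2Bdelta had 2.81, 3.36 and 2.98. These list shares were within a few percentage points of the background.

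Among transcription genes, 8 of 18 divergent Mediator genes (44.4%) and 7 of 18 RNA polymerase subunit genes (38.9%) were bound. MED17 had 2.56, 1.12 and 2.30 and MED27 had 2.07, 1.28 and 2.25, both lowest in replicate 2. Polr2H had 3.61, 2.62 and 3.06, and Polr2J, which shares a 235-bp promoter with CG15141, had 2.66, 1.27 and 2.13. Vacuolar proton pump genes were bound in 6 of 12, and Vha13 had 5.47, 5.29 and 4.98, an SD of 0.249. Vha13 encodes a subunit of the pump that acidifies vesicles.

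Proteasome, splicing and CCT chaperonin genes had shares below the background in the optimal set, on small counts and with no test. Proteasome genes were bound in 5 of 22 divergent cases (22.7%), namely Rpn13, Rpn2, Rpn3, Rpn5 and Rpt4, and the replicates had 4, 7 and 3. Rpn2, which shares its promoter with the histone mRNA-binding Slbp, had 1.88, 1.5 and 1.16, and Rpn5 had 1.62, 0.726 and 1.82. Splicing genes were bound in 5 of 17 (29.4%), which were Prp3, Prp31, SNRPG, SmB and U2af50, and the replicates had 5, 6 and 3. The member of U2af50, a splice-site recognition factor, had 2.65, 1.56 and 2.32, and that of SNRPG had 1.70, 1.07 and 2.15. Both summits lay nearer the partner, 47 bp from PIG-Q against 151 bp from U2af50, and 170 bp from mthl1 against 379 bp from SNRPG. The partner was nearer at 5 of the 6 members of splicing pairs. CCT8, with 1.25, 0.534 and 0.862, was the 1 bound gene of 7 divergent CCT chaperonin genes, with 2, 2 and 1 in the replicates. Its summit lay 451 bp from the CCT8 start and 77 bp from that of the partner CG30349. Within 250 bp, no divergent CCT gene was bound.

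DNA replication genes were bound in 5 of 14 (35.7%), which were Mcm2, Orc2, PolA2, PolE4 and RPA1. PolA2 had 0.635, 2.09 and 1.40, and PolE4 had 0.924 and 1.17 in replicates 2 and 3 with no region in replicate 1. RPA1 and Mcm2, for a single-strand DNA-binding protein and a helicase subunit, form a pair with each other, and it was the 1 bound pair with both genes in the same list.

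Of genes of the nervous system, 6 of 42 dpr, DIP and nicotinic receptor genes were divergent, and dpr14, dpr19 and nAChRbeta2 were bound, against 16 of 36 non-divergent ones. The member of dpr14, a cell-surface immunoglobulin protein of neurons, had 2.36, 2.78 and 2.52, and that of dpr19 had 1.56, 4.24 and 1.37. None of 4 divergent cuticle protein genes and none of 14 divergent odorant and gustatory receptor genes was bound. Among the non-divergent genes of these 2 lists only Cpr31A was bound, of 66 and 105.

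**Figure D5:**
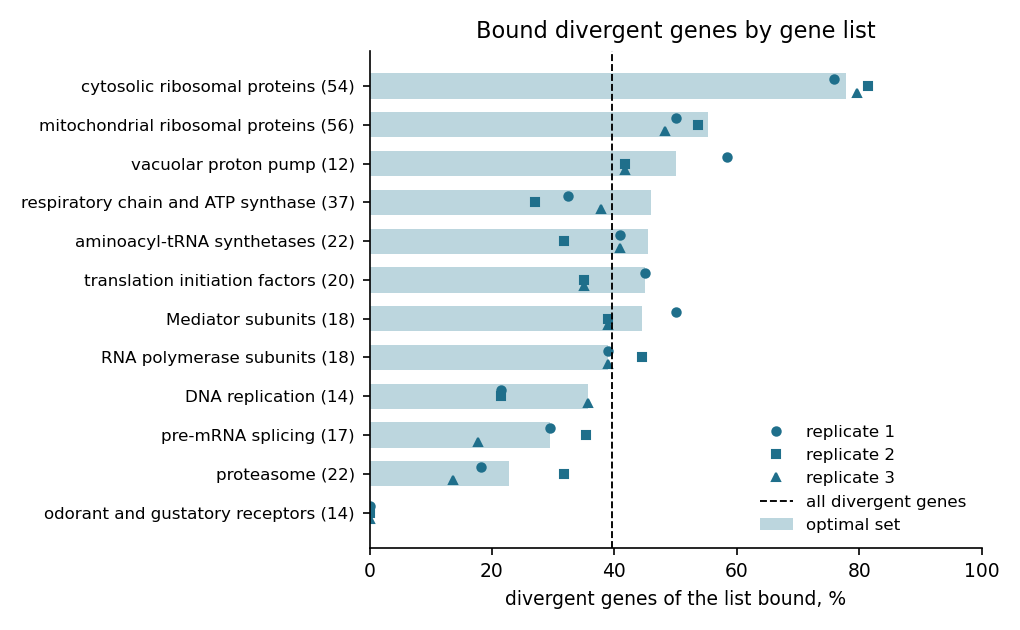
Share of the divergent genes of each list (number in brackets, lists of 10 or more) that were bound (x axis, %) in the optimal set (bars) and in each replicate (points), with a dashed line at the 39.7% of all divergent genes. Cytosolic ribosomal protein genes lie at 77.8% and mitochondrial ones at 55.4%, while proteasome genes lie at 22.7%.

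The share of divergent genes differed between the lists as well. It was 77.3% of splicing genes, 72% of Mediator genes and 66.7% of tRNA synthetase genes, against 33.4% of all protein-coding genes, 14.3% of the dpr, DIP and nicotinic receptor genes and 5.71% of cuticle protein genes.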

How the data were processed

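ChIP-seq peak lists of 3 replicates on dm6 were used. Per the labels, chromatin was sonicated to 200 to 800 bp. Each deposited list gives an interval, the authors' peak signal, whose scale was not equalised between lists, and, as another number, the summit's offset. Per the file records, lists came from replicate and control alignments, and the sources used here do not name the aligner or peak caller. No list gives read counts, so depth is unknown. The dm3 lists were not used. Genes came from Ensembl release 115 and sequence from the RefSeq dm6 assembly. Calculations ran in Python 3.11.15 (scipy 1.17.1, matplotlib 3.10.9, pandas 2.3.3, numpy 2.4.6), and the code was tested on simulated data.

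Relative signal is the signal of the nearest replicate region within 100 bp divided by that replicate's median over 5852 optimal peaks measured in all 3. Differences over replicates had two-sided exact sign-flip permutation tests. Intervals are exact (Clopper-Pearson, 95%) and cover counting of peaks or genes only. Members, motifs and lists were chosen with earlier results of these data known. Genes were named by a rule: the 10 strongest members, up to 2 per list, up to 6 with the palindrome, the 5 weakest and the 5 pairs with most peaks, with 1 list member not reported here; names beyond it were added to account for small counts, and Fibp/Deaf1 and MtnA/CG8500 for their motifs. Windows, distances, rank limits and left-out replicates were varied, and ranges of G+C were added after seeing the data.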

Additional observations from a re-analysis of the deposited data

How the results depend on the processing

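The higher bound share of divergent starts kept its direction under every alternative run. Where single starts were compared it was 13.2 to 25.5 percentage points higher, and 22.3 to 22.8 with each replicate left out. Counting a pair once gave 26.3, but this sets either of 2 starts against 1, so it is not a like comparison. The share of optimal peaks that were members was 12.4% with pairs within 500 bp and 14.9% with summits within 250 bp. It was 14.9% without pairs that have another gene over the gap and 17.1% with overlapping starts added. Among the stronger peaks, those above the median, it was 17.5%. For this share, and for those of summits and motifs below, the optimal set was not called again. Leaving a replicate out kept the optimal peaks found within 100 bp among the top 6793 regions of both others. The share of members was then 15.4 to 16.2%. The signal difference from non-divergent promoters changed sign, to 0.034 (log2) with pairs within 500 bp and 0.053 without replicate 2, and ranged from -0.135 to 0.053 with each replicate left out; within G+C of 35 to 45% and 45 to 55%, chosen after seeing the data, it was 0.067 and 0.053, and within 25 to 35% it was -0.081, negative in every replicate. The cause was not tested. Presence in every replicate was 79.5% with no rank limit, 44.8% at 50 bp and 66.3 to 69.98% in the remaining 2 replicates, where fewer need to match. Summits between the starts made up 76.9% within 250 bp. They made up 72.7 to 76.1% among members found in both other replicates, for each replicate left out.

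Motif shares moved with the length searched. With 50 bp and then 250 bp on either side, they were 7.85% and 20.3% for the NRF-1 hexamer, 6.30% and 20.4% for the DRE, 4.74% and 17.3% for M1BP, 1.19% and 6.39% for the GAGA site, 6.84% and 37.4% for BEAF-32, and 6.48% and 35.04% for the E-box. Among members above the median signal, they were 16.6% for the hexamer, 9.31% for the DRE, 6.57% for M1BP and 12.4% for BEAF-32. Among members present in all replicates, the hexamer was at 14.1% and the DRE at 9.31%. Among members found in both other replicates, for each replicate left out, the hexamer was at 12.8 to 13.6%. The DRE was at 9.39 to 10.3% of them. Over all members the shares were 11.8% and 11.6%. The bound genes of all lists numbered 151, and 129 within 250 bp. At 250 bp the CCT chaperonin list fell from 1 to 0 and mitochondrial import from 2 to 1. The dpr, DIP and nicotinic receptor list fell from 3 to 1.

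No paired analysis was possible because the samples form 1 group and there is no other group to pair with; the sign-flip tests use differences taken within each replicate. Depth is unknown, and no permutation over 3 replicates can fall below p = 0.25.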
